A study of Mus musculus with 32 samples.

Results

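CXC chemokines and the related CX3C chemokine Cx3cl1 were followed at the RNA level in mouse liver. The group held 10 of the 54532 genes of the count table, taken by gene name: Cxcl1, Cxcl2, Cxcl5, Cxcl9, Cxcl10, Cxcl12, Cxcl13, Cxcl14, Cxcl16 and Cx3cl1. Livers came from female and male wild-type (WT) and Cyp2c70 knockout (Cyp2c70-/-, KO) mice on a C57BL/6 background, killed at 12 weeks of age. Mice stayed on chow or were moved after weaning to chow with 0.006% SC-435, an inhibitor of the ileal bile acid transporter (IBAT, also called ASBT), at about 11 mg per kg per day. There were 32 mice in 8 groups (sex, genotype and diet) with 4 mice in each. The knockout was a CRISPR-Cas9 deletion within Cyp2c70, and the line descended from a single founder. Control mice received the chow without SC-435. Whole liver was sequenced, so a lower level in any comparison may be fewer cells of a type or less RNA in each cell, and these cannot be told apart.

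Cyp2c70 makes the muricholic acids that keep the mouse bile acid pool hydrophilic, and without it the pool resembles the human one and the liver develops cholestatic injury. Chemokines are small secreted proteins that steer leukocytes through G protein-coupled receptors. Cxcl1, Cxcl2 and Cxcl5 attract neutrophils through Cxcr2. Cxcl9 and Cxcl10 are interferon-induced ligands of Cxcr3 on T and NK cells. Cxcl12 and Cxcl13 are homeostatic ligands of Cxcr4 and Cxcr5, and Cxcl14 is a constitutive chemokine whose receptor is less settled. Cxcl16 (receptor Cxcr6) and Cx3cl1, or fractalkine (receptor Cx3cr1), are made as transmembrane proteins and can be shed by Adam10 and Adam17.

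The libraries held 36476021 to 44771350 counts assigned to genes, with a median of 42232543. No pair of libraries within a group agreed within sampling noise. The deleted gene checked the labels: Cyp2c70 lay between 521 and 838 CPM (counts per unit of TMM-scaled library size) in the 8 WT mice on chow, between 413 and 567 CPM in female and 271 and 373 CPM in male WT mice on SC-435, and between 109 and 188 CPM in the 16 KO mice, and the reads that remain can come from the parts of the gene outside the deletion. The liver label was also borne out by the hepatocyte marker list, whose 8 genes summed to between 53234 and 182873 CPM in every mouse. Male WT chow replicate 1 stood apart, with a TMM scaling factor of 0.622 and a mean correlation with its group of 0.918. Nothing in the labels says that the 4 mice of a group were handled separately, so the spread between them may be partly technical.

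Short stretches upstream of 5 members are given first so that the letters searched for motifs can be seen, and no link between them and the expression values was tested. RefSeq promoters (GRCm38.p6) were found for 8 of the 10 members, all but Cxcl5 and Cxcl16. Each run below is the 250 bases before the RefSeq start, 5′ to 3′ on the gene's strand, and capitals mark matches on either strand to the kappaB consensus, to an interferon-stimulated response element (ISRE, searched as GAAANNGAAA) or to a gamma-activated site (GAS, searched as TTCNNNGAA). Cxcl1 and Cxcl2 are shown because they lie close together and carry the same run, Cxcl10 because it rose in female KO mice, Cxcl14 because it rose in KO mice of both sexes, and Cxcl9 because it lies close to Cxcl10 and followed another pattern.
Cxcl1: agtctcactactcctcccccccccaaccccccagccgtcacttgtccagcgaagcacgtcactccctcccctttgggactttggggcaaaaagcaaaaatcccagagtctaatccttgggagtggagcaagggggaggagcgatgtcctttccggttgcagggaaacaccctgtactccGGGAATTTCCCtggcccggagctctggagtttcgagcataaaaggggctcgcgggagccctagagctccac
Cxcl2: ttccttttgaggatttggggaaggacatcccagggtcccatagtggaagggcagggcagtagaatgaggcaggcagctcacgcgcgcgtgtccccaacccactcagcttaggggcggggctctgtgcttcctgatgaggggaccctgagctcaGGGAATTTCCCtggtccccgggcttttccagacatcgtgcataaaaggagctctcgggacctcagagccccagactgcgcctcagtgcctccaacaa
Cxcl10: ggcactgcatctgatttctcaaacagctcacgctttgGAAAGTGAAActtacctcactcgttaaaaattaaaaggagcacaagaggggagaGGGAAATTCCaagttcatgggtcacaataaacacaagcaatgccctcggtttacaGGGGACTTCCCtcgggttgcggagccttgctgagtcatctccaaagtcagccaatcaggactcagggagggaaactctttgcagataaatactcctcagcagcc
Cxcl14: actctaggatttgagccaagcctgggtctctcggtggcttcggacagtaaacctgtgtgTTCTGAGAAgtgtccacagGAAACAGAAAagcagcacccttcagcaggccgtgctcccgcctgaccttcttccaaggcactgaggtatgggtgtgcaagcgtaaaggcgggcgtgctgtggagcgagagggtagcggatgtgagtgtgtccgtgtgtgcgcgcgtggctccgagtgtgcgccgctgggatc
Cxcl9: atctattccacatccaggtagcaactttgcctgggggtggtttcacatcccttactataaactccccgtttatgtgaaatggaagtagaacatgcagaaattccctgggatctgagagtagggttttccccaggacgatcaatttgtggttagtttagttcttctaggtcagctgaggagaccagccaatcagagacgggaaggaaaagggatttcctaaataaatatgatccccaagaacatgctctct
The windows are chr5:90890995-90891244 (+ strand) for Cxcl1, chr5:90903649-90903898 (+ strand) for Cxcl2, chr5:92348890-92349139 (- strand) for Cxcl10, chr13:56296552-56296801 (- strand) for Cxcl14 and chr5:92328080-92328329 (- strand) for Cxcl9.

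Cxcl1 and Cxcl2 held the same kappaB run, GGGAATTTCC, at bases -71 to -62 and -97 to -88 before their starts, each overlapped by a match on the other strand. This exact run was found in 28 of 32851 mouse promoter windows of the same length (0.0852%), and any match to the kappaB consensus in 7.25%. Cxcl10 held kappaB matches at -159 to -150 and at -104 to -94, an ISRE at -213 to -204 and an AP-1 match (TGANTCA) at -74 to -68. Cxcl14 held an ISRE at -172 to -163 and a GAS match at -191 to -183. ISRE matches were found in 2.98% of the windows, GAS matches in 7.02%, and AP-1 matches in 6.75%. The windows of Cxcl9, Cxcl13 and Cx3cl1 held only a TATAAA match (12.4% of windows), and that of Cxcl12 held none of the motifs searched. A match is a run of letters in this window and was not tested for binding.

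The members differed widely in level. Levels of different genes are compared here per kilobase, as CPM divided by the gene length the table gives. In female WT mice on chow, Cxcl12 stood first at 48.0 ± 4.88 CPM per kb (mean ± SD, n = 4), followed by Cxcl9 at 3.55 ± 0.321 and Cxcl16 at 2.68 ± 0.498. Cxcl13 (1.52 ± 0.342), Cxcl10 (1.34 ± 0.127), Cxcl1 (1.18 ± 0.331) and Cxcl14 (0.743 ± 0.449) followed, and the values of these 4 members overlapped between neighbours in the order. Cx3cl1 had 0.238 ± 0.0634 CPM per kb, and Cxcl2 (0.0321 ± 0.0198) and Cxcl5 (0.0256 ± 0.0429) were near the detection limit and could not be ordered.

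The order shifted in KO livers on chow. In male KO mice Cxcl1 (16.4 ± 12.5 CPM per kb) and Cxcl14 (10.4 ± 3.76) came next after Cxcl12 (36.1 ± 7.09). In male WT mice on chow they had ranked behind Cxcl9 and Cxcl16, at 1.42 ± 0.678 and 0.963 ± 0.132. Cxcl10 had 1.45 ± 0.704 there and could not be ordered against Cxcl1, and the values of Cxcl9 and Cxcl1 overlapped too. In female KO mice Cxcl9 again ranked next after Cxcl12 at 7.01 ± 1.25 CPM per kb, and Cxcl16 (5.07 ± 1.05), Cxcl14 (3.91 ± 1.17) and Cxcl1 (3.77 ± 1.34) followed, with overlapping values. Cxcl12 was the most abundant member in all 8 groups.

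**Figure D1:**
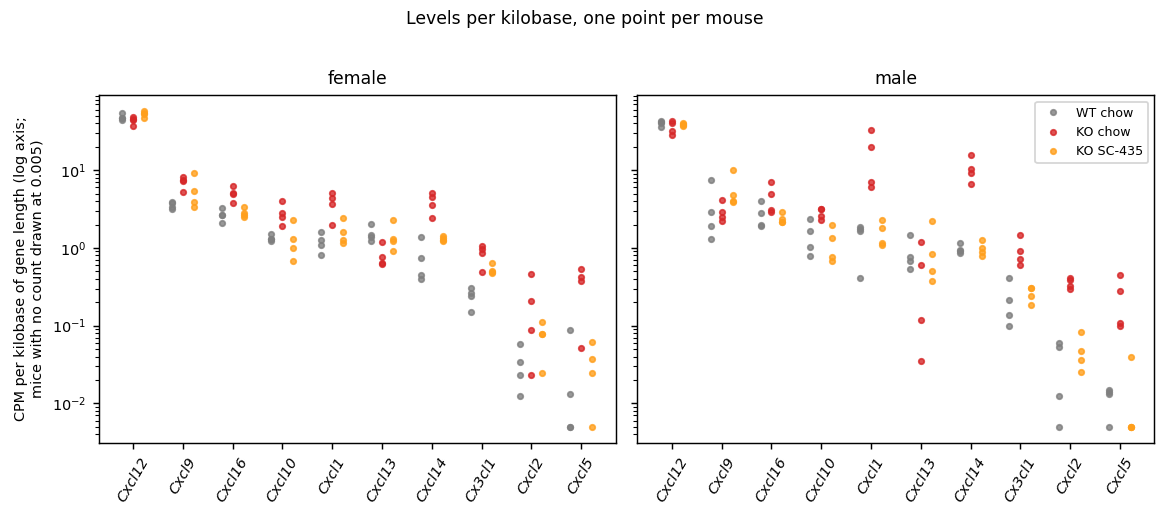
Level of each chemokine per kilobase of gene length on a log axis, for females (left) and males (right), with 1 point per mouse in WT chow (grey), KO chow (red) and KO SC-435 (orange), and mice with no count drawn at 0.005. Cxcl12 lies highest in every group, and the red points of Cxcl1, Cxcl14, Cx3cl1, Cxcl2 and Cxcl5 lie mostly above the grey and orange ones.

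To ask what loss of Cyp2c70 and then IBAT inhibition did to these genes, the genotypes and the diets were tested against each other within each sex (edgeR's quasi-likelihood test over all genes). To be called, a gene needed a Benjamini-Hochberg adjusted p under 0.05 and also more than 1 unit of log2 fold change, up or down. In females on chow, 4 of the 8 members tested were called, all higher in KO: Cxcl14, Cx3cl1, Cxcl1 and Cxcl10. Of all 16205 genes tested there, 6.68% were called and 5.67% were called higher. At any fold 7 of the 8 members had an adjusted p under 0.05 (14.9% of genes). For Cxcl13 this was lost in most fits that left out 1 mouse. KO and WT mice did not overlap for 6 members that were higher (11.7% of genes) and 1 that was lower (9.21%). The median log2 fold change of the members tested was 1.01, beside -0.0187 for all genes. In males on chow, 3 of 9 members tested were called (Cxcl1, Cxcl14 and Cxcl2, all higher), beside 1.05% of 15862 genes, with 0.914% called higher. Non-overlapping groups, with KO higher, were found for 4 members (8.47% of genes). Cxcl2 passed the filter on low counts in males only through the KO chow mice, so its place in that count was partly set by the filter.

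With SC-435, members fell in KO livers of both sexes. In female KO mice 2 of 8 members tested were called, Cxcl14 and Cxcl1, both lower, beside 5.8% of 16332 genes (3.7% called lower). At any fold 3 members had an adjusted p under 0.05 (17.8% of genes), and 2 had non-overlapping groups with SC-435 lower (10.8%). In male KO mice 5 of 9 were called, all lower (Cxcl14, Cxcl1, Cx3cl1, Cxcl10 and Cxcl2, the last again admitted by the filter only through the KO chow mice), beside 6.45% of 15984 genes (4.57% called lower). At any fold the number was 6 (17.2% of genes), and 5 had non-overlapping groups with SC-435 lower (12.3%). The 2 comparisons of each sex share the KO chow mice, so a high value there enters both.

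In WT mice SC-435 changed no member by this rule. Of 8 members tested, 0 were called in females, where 1.1% of genes were, and 0 in males, where 0.0394% were. At an unadjusted p under 0.05 edgeR gave 1 member in females (Cxcl16) and 0 in males, and DESeq2 and limma-voom gave 0 calls in either sex.

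Set against WT mice on chow, KO mice on SC-435 had 1 of 8 members called in females (Cx3cl1, higher, where 3.93% of genes were called and 2.71% were called higher) and 0 of 8 in males (0.208% of genes). Against WT mice on the same SC-435 diet the counts were 1 of 8 in females (Cx3cl1 again, where 2.56% were called and 1.99% were called higher) and 0 of 8 in males (0.0259%). Groups did not overlap for 1 member in the former female comparison (11.5% of genes were higher without overlap) and for 2 in the latter (9.29%), where Cxcl16 joined Cx3cl1 at an adjusted p under 0.05 but any fold (10.9%). Leaving out any 1 mouse took the edgeR adjusted p of Cxcl16 there over 0.05 (0.0505 to 0.0849). For the male counts of 0, edgeR gave 0 and 3 members at an unadjusted p under 0.05, and DESeq2 and limma-voom gave 0 calls in both. In the comparison of female with male WT mice on chow 0 of 8 were called (1.4% of genes), with 0 at an unadjusted p under 0.05 and 0 by DESeq2 and limma-voom, and 1 member was higher in females without overlap (5.8%).

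**Figure D2:**
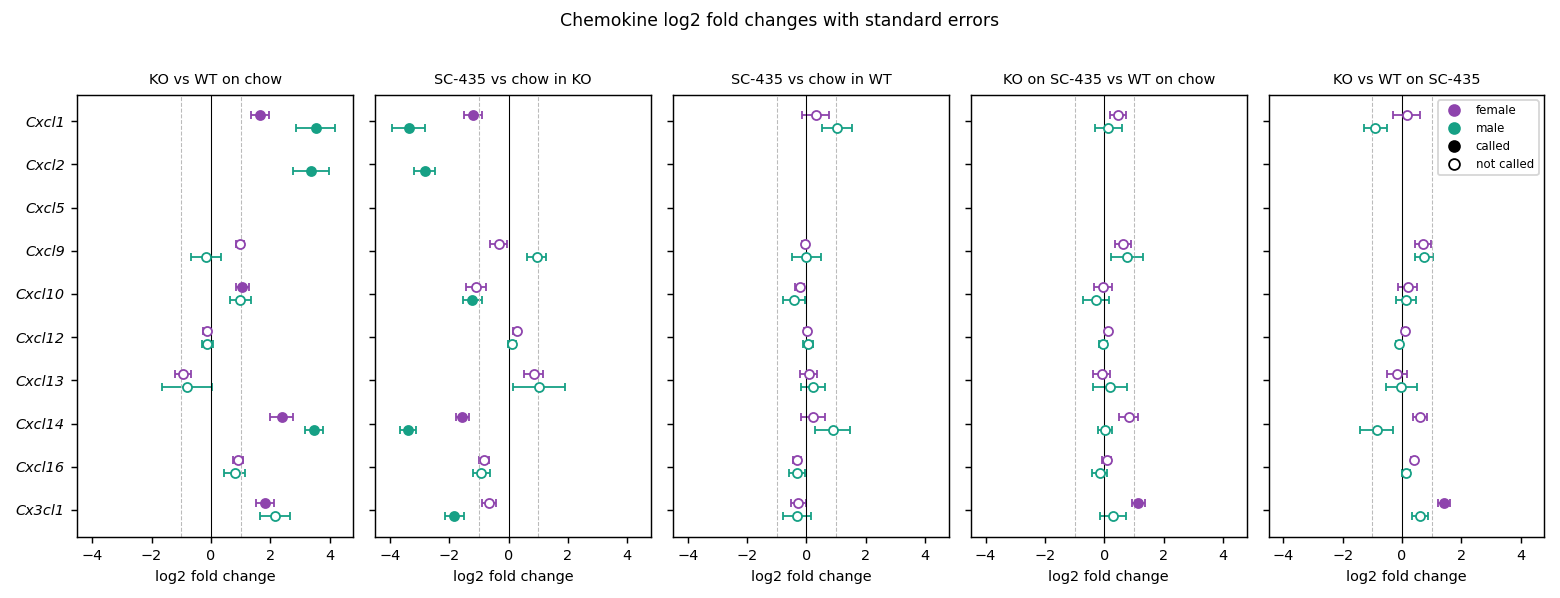
Log2 fold change (x axis) of each chemokine (rows) in 5 comparisons (panels), with edgeR standard errors as bars, for females (purple) and males (green), where filled points were called and dashed lines mark a log2 fold change of 1. Members that were not tested after the filter on low counts have no point. The filled points lie to the right for KO vs WT on chow and to the left for SC-435 vs chow in KO, and Cx3cl1 in females is filled also in the last panels.

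Cxcl1, the neutrophil chemoattractant also known as KC, sits on chromosome 5 (GRCm38, 90891241 to 90893115, + strand, ENSMUSG00000029380). In females it measured 2.35, 1.5, 2.04 and 2.99 CPM in the WT chow mice and 8.12, 9.62, 6.80 and 3.74 CPM in the KO chow mice, replicates 1 to 4. The groups did not overlap, and KO exceeded WT by 1.66 ± 0.30 on the log2 scale (SE, edgeR adjusted p = 0.00641). With SC-435 the female KO mice had 2.20, 2.39, 3.04 and 4.61 CPM, so the lowest untreated KO mouse (3.74) lay within the treated range. The change was -1.21 ± 0.31 on the log2 scale (edgeR adjusted p = 0.0246), and it missed the threshold in 5 of 8 fits that left out 1 mouse (highest adjusted p = 0.0808), KO chow replicates 1 and 2 and KO SC-435 replicates 1, 2 and 3.

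In males the estimates for Cxcl1 were larger, but the difference between the sexes did not pass the test given further on. The WT chow mice had 0.780, 3.26, 3.12 and 3.53 CPM and the KO chow mice 37.7, 60.8, 13.2 and 11.3 CPM. Replicates 1 and 2 of the KO group lay well above replicates 3 and 4, and all 4 lay above every WT mouse. The difference on the log2 scale was 3.53 ± 0.66 (edgeR adjusted p = 0.0460), close to the threshold: with 1 mouse left out it stayed between 2.97 and 3.80, and the adjusted p passed only without male WT chow replicate 1 (0.0256) and reached 0.150 otherwise.

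On SC-435 the male KO mice had 2.17, 2.04, 3.35 and 4.24 CPM of Cxcl1, below every KO chow mouse. The change from chow was -3.38 ± 0.57 on the log2 scale (edgeR adjusted p = 0.00685). Male WT mice on SC-435 had 4.12, 4.67, 3.03 and 10.1 CPM, which did not differ from WT on chow by the test (log2 fold change 1.03 ± 0.50, edgeR adjusted p = 0.836).

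Cxcl2 (MIP-2; chromosome 5, 90903871 to 90905938, + strand, ENSMUSG00000058427) is the neighbour of Cxcl1 and was scarce, with 0 to 50 counts per library. Male KO chow mice had 0.790, 0.668, 0.847 and 0.613 CPM, and every other male mouse had 0.170 CPM or less. Against male WT chow the log2 fold change was 3.38 ± 0.61 (edgeR adjusted p = 0.0427), and SC-435 in male KO mice gave -2.84 ± 0.36 (adjusted p = 0.00213). The lower groups held only 0 to 5 counts (WT chow) and 2 to 7 counts (KO SC-435) per library, and the gene was tested only because KO chow carried it past the filter, so the sizes of these folds are uncertain. Fitted with no filter on low counts, the adjusted p-values were 0.0333 and 0.00142. As for Cxcl1, the call for KO vs WT held without male WT chow replicate 1 (adjusted p = 0.0143) and was lost when any of the other 7 mice was left out (up to 0.146).

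Female KO chow mice spread widely in Cxcl2, with 0.425, 0.968, 0.181 and 0.0485 CPM, against 0.0259, 0.0705, 0.121 and 0.0475 in WT chow and 0.164, 0.161, 0.0516 and 0.227 in KO SC-435. The groups overlapped and the gene did not pass the filter in females. Fitted with no filter on low counts, the KO effect had an edgeR adjusted p of 0.0430 and the SC-435 effect in KO one of 0.224.

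Cxcl5 (LIX; chromosome 5, 90759360 to 90761624, + strand, ENSMUSG00000029371), the third neutrophil ligand, had 0 to 51 counts per library. Female KO chow mice had 0.696, 0.988, 0.786 and 0.0970 CPM, so that replicate 4 lay far under the other 3, and male KO chow mice had 0.203, 0.184, 0.524 and 0.848 CPM. In the other 6 groups no mouse exceeded 0.166 CPM, and many had no count, which allows a true count of up to 3 in that library (counting error only). All 4 male KO chow mice lay above every other male mouse, while female KO chow replicate 4 overlapped the female WT mice.

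With all mice kept, no pairwise comparison had enough counts for Cxcl5 to pass the filter. Without the filter, edgeR gave adjusted p-values of 0.00823 (females, KO vs WT on chow), 0.0342 (males, KO vs WT on chow), 0.00388 (females, SC-435 vs chow in KO) and 0.0112 (males, SC-435 vs chow in KO), in each case with the KO chow group higher. Fold changes are not given, because the lower groups held a handful of counts. In male KO chow mice Cxcl5 was highest in replicates 3 and 4, where Cxcl1 was lowest.

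**Figure D3:**
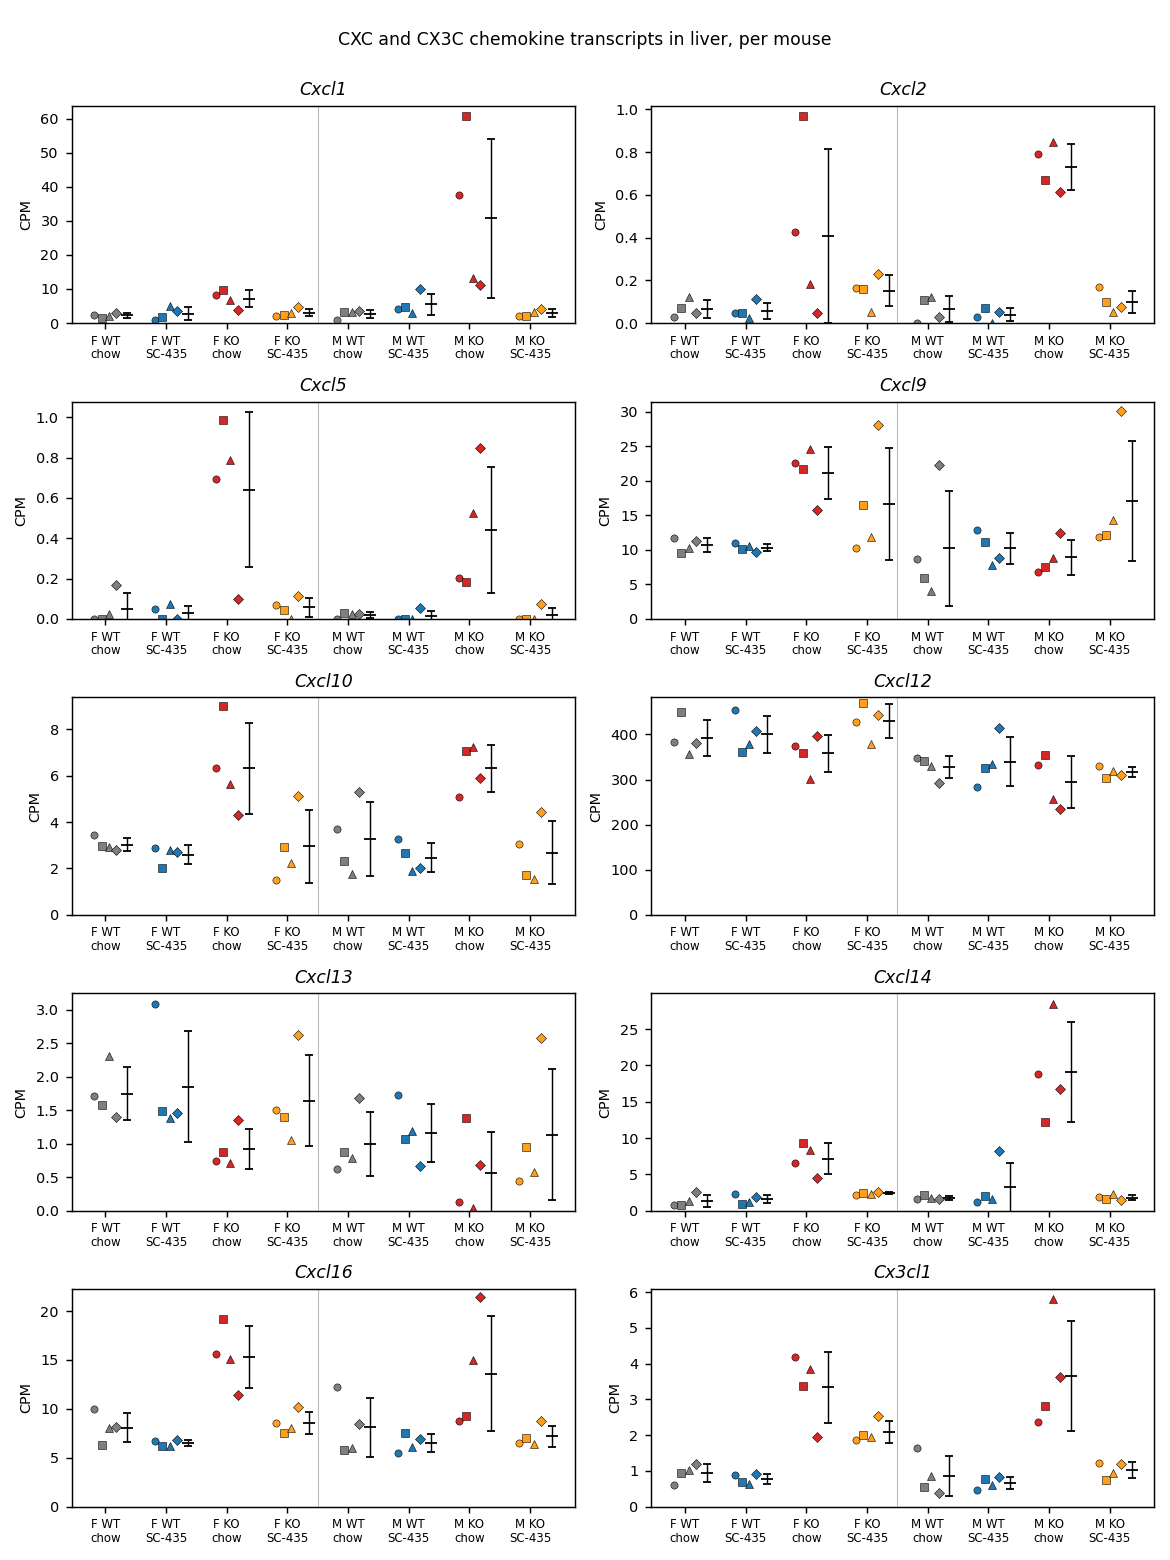
CPM (y axis, linear and starting at 0, with its own range in each panel) of each chemokine in the 32 mice, by group along the x axis (F, female; M, male). Circles, squares, triangles and diamonds are replicates 1 to 4, and the black dash with bar is the mean ± SD of 4 mice. Most KO chow mice (red) lie above the other groups of their sex for Cxcl1, Cxcl14 and Cx3cl1, and the male Cxcl1 points reach 60.8 CPM.

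Cxcl9 (chromosome 5, 92321347 to 92328079, - strand, ENSMUSG00000029417) and Cxcl10 (chromosome 5, 92346638 to 92348889, - strand, ENSMUSG00000034855) are the interferon-induced pair and lie close together. Cxcl9 was higher in female KO livers by a margin just short of the fold threshold. Female WT chow mice had 11.7, 9.59, 10.2 and 11.3 CPM and KO chow mice 22.6, 21.6, 24.6 and 15.8 CPM. The groups did not overlap (log2 fold change 0.97 ± 0.14, edgeR adjusted p = 0.00276, not called), and without female WT chow replicate 1 or KO chow replicate 4 the fold threshold was passed.

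SC-435 left Cxcl9 widely spread in female KO mice. Treated mice had 10.2, 16.5, 11.8 and 28.1 CPM, a range from the WT level to above every untreated KO mouse (log2 fold change -0.34 ± 0.28, edgeR adjusted p = 0.430).

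Males showed another pattern for Cxcl9. WT chow mice had 8.69, 5.86, 3.99 and 22.3 CPM, and KO chow mice 6.77, 7.55, 8.87 and 12.4 CPM, all inside the WT range (log2 fold change -0.16 ± 0.50, edgeR adjusted p = 0.898). Without male WT chow replicate 4 the estimate was 0.57 (adjusted p = 0.417). Male KO mice on SC-435 had 11.9, 12.1, 14.3 and 30.1 CPM, with a log2 fold change of 0.94 ± 0.32 over KO on chow (adjusted p = 0.0714). That value was 0.52 without KO SC-435 replicate 4 and 1.15, past the threshold, without KO chow replicate 4 (adjusted p = 0.146 and 0.0430). The difference between the sexes in the KO effect on Cxcl9 was 1.18 ± 0.54 (female minus male, edgeR adjusted p = 0.778), and in the SC-435 effect in KO mice -1.31 ± 0.47 (adjusted p = 0.259), so neither passed the test.

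Cxcl10 had similar estimates in the sexes, and the test called it in females. Female WT chow mice had 3.44, 2.96, 2.94 and 2.78 CPM and KO chow mice 6.34, 8.99, 5.65 and 4.32 CPM, with no overlap (log2 fold change 1.05 ± 0.21, edgeR adjusted p = 0.0103). Male WT chow mice had 3.70, 2.33, 1.76 and 5.31 CPM and KO chow mice 5.10, 7.05, 7.24 and 5.88 CPM, where 1 WT mouse lay above the lowest KO mouse (0.98 ± 0.35, adjusted p = 0.227). Without female KO chow replicate 2 the estimate was 0.86, under the fold threshold.

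On SC-435, Cxcl10 in male KO mice was 3.07, 1.70, 1.53 and 4.43 CPM, below every KO chow mouse (log2 fold change -1.23 ± 0.33, edgeR adjusted p = 0.0331). This call was lost in 5 of 8 fits with 1 mouse left out (highest adjusted p = 0.0829): without KO chow replicate 2 or 3, or without KO SC-435 replicate 1, 2 or 3. In female KO mice the treated values of 1.52, 2.94, 2.22 and 5.11 CPM overlapped with chow (-1.10 ± 0.34, adjusted p = 0.0522), and the comparison passed the threshold when replicate 4 of either group was left out (lowest adjusted p = 0.0141). Replicate 4 of the KO SC-435 group was the highest in both Cxcl9 and Cxcl10 in each sex. Art3, on the other strand, overlaps Cxcl10 and had 42 to 123 counts per library, and reads from that overlap could be assigned to either gene.

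Cxcl12 (SDF-1; chromosome 6, 117168535 to 117181367, + strand, ENSMUSG00000061353), made by hepatic stromal and endothelial cells, was even across the study. It had 8939 to 20477 counts per library, and its level lay between 235 and 470 CPM in all 32 mice. The log2 fold change of KO over WT on chow was -0.14 ± 0.12 in females and -0.12 ± 0.18 in males (edgeR adjusted p = 0.456 and 0.791), and that of SC-435 in KO mice was 0.26 ± 0.11 and 0.10 ± 0.14 (adjusted p = 0.119 and 0.618). Female WT chow mice (383, 450, 357 and 381 CPM) lay above male WT chow mice (348, 341, 329 and 292 CPM) without overlap, but the difference did not pass the test (0.26 ± 0.16, adjusted p = 0.607).

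Cxcl13 (chromosome 5, 95956951 to 95961068, + strand, ENSMUSG00000023078), the ligand that draws B cells into follicles, was lower in female KO livers. Female WT chow mice had 1.71, 1.57, 2.31 and 1.40 CPM and KO chow mice 0.735, 0.871, 0.706 and 1.36 CPM, without overlap. The log2 fold change was -0.94 ± 0.27 (edgeR adjusted p = 0.0440), under the fold threshold and so not called. With 1 mouse left out the edgeR adjusted p reached 0.121, and it stayed under 0.05 only without KO chow replicate 4 (0.0110). Female KO mice on SC-435 had 1.5, 1.40, 1.06 and 2.61 CPM (0.85 ± 0.32 over KO chow, adjusted p = 0.0949). Male KO chow mice ranged from 0.0403 to 1.38 CPM and overlapped with male WT chow mice (0.624 to 1.69 CPM), with a log2 fold change of -0.81 ± 0.84 (adjusted p = 0.677).

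Cxcl14 (chromosome 13, 56288643 to 56296551, - strand, ENSMUSG00000021508) was called in 6 of the 15 comparisons and Cxcl1 in 5, more than the other members. Female WT chow mice had 0.827, 0.728, 1.36 and 2.52 CPM and KO chow mice 6.52, 9.31, 8.29 and 4.44 CPM. Male WT chow mice had 1.56, 2.11, 1.71 and 1.66 CPM and KO chow mice 18.9, 12.2, 28.5 and 16.8 CPM. KO and WT mice did not overlap in either sex. KO exceeded WT by 2.38 ± 0.38 on the log2 scale in females (edgeR adjusted p = 0.00417) and 3.47 ± 0.30 in males (adjusted p = 0.00209), and both calls held in all 8 fits with 1 mouse left out.

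SC-435 lowered Cxcl14 in KO livers of both sexes. Female KO mice on SC-435 had 2.22, 2.46, 2.32 and 2.61 CPM, and male KO mice 1.85, 1.60, 2.30 and 1.44 CPM, all below the KO chow mice of their sex. The log2 fold change was -1.57 ± 0.21 in females (edgeR adjusted p = 0.00258) and -3.40 ± 0.27 in males (adjusted p = 0.000239). The treated male KO mice did not differ from male WT chow mice by the test (0.04 ± 0.24, adjusted p = 0.980). In females the treated KO mice overlapped only with the highest WT chow mouse (0.82 ± 0.33, adjusted p = 0.120), and without WT chow replicate 4 that difference was called (1.30, adjusted p = 0.00615).

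Cxcl16 (chromosome 11, 70453983 to 70459984, - strand, ENSMUSG00000018920), a membrane-bound scavenger receptor for oxidised lipids as well as a chemokine, showed smaller differences. Female WT chow mice had 9.95, 6.27, 7.99 and 8.12 CPM, KO chow mice 15.6, 19.2, 15.1 and 11.5 CPM, and KO SC-435 mice 8.51, 7.56, 8.02 and 10.2 CPM. Neither of the outer groups overlapped with KO chow. On the log2 scale the difference was 0.91 ± 0.18 for KO over WT and -0.84 ± 0.16 for SC-435 over chow in KO (edgeR adjusted p = 0.00922 and 0.00794), both short of the fold threshold. Zmynd15 overlaps Cxcl16 on the other strand and had 94 to 605 counts, and the same limit on shared reads applies.

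In males Cxcl16 was spread more widely in KO chow mice, at 8.75, 9.26, 15 and 21.4 CPM, against 12.2, 5.75, 5.99 and 8.45 CPM in WT chow mice (log2 fold change 0.80 ± 0.36, edgeR adjusted p = 0.335). On SC-435 male KO mice had 6.5, 7.05, 6.42 and 8.75 CPM (-0.92 ± 0.28 from KO chow, adjusted p = 0.0491, short of the fold threshold). With 1 mouse left out, this edgeR adjusted p stayed under 0.05 only without KO chow replicate 1 or 2 (0.0242 and 0.0304). In those fits the fold threshold was passed too, and in the others the adjusted p reached 0.122.

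Cx3cl1 (chromosome 8, 94772009 to 94782427, + strand, ENSMUSG00000031778), which holds Cx3cr1-bearing monocytes at the endothelium and epithelium, rose in female KO livers. WT chow mice had 0.595, 0.940, 1.02 and 1.19 CPM and KO chow mice 4.18, 3.37, 3.85 and 1.94 CPM (log2 fold change 1.82 ± 0.29, edgeR adjusted p = 0.00387). Female KO mice on SC-435 had 1.87, 2.0, 1.93 and 2.55 CPM, above every WT chow mouse, with 2 of the 4 below the lowest untreated KO mouse. The step down from KO chow did not pass the test (-0.68 ± 0.23, adjusted p = 0.0726), and the level stayed above WT chow (1.15 ± 0.23, adjusted p = 0.00728) and above WT on SC-435 (1.43 ± 0.20, adjusted p = 0.00307; 0.878, 0.683, 0.628 and 0.918 CPM). Without female WT chow replicate 1 the former was just under the fold threshold (0.99).

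In males, Cx3cl1 in KO chow mice (2.37, 2.81, 5.80 and 3.63 CPM) exceeded every WT chow mouse (1.64, 0.547, 0.842 and 0.389 CPM), yet the test did not call it (log2 fold change 2.16 ± 0.49, edgeR adjusted p = 0.0832). Without male WT chow replicate 1, the library that stood apart, it did (2.63, adjusted p = 0.0165). SC-435 in male KO mice brought Cx3cl1 to 1.22, 0.729, 0.951 and 1.19 CPM, a change of -1.83 ± 0.31 (adjusted p = 0.00753). Treated male KO mice overlapped with WT chow mice (0.29 ± 0.44, adjusted p = 0.898).

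To test whether SC-435 acted differently in the genotypes, the difference of the SC-435 effects was fitted over the 16 mice of each sex. Cxcl2 entered the male fit only through the KO chow mice. In males 2 of 9 members tested passed an adjusted p under 0.05 (0.0906% of genes did, and 0.0785% in the negative direction): Cxcl1 at -4.41 ± 0.79 (edgeR adjusted p = 0.0485) and Cxcl14 at -4.30 ± 0.69 (adjusted p = 0.0299), KO minus WT on the log2 scale. Male WT SC-435 replicate 4 had 10.1 CPM of Cxcl1 and 8.28 CPM of Cxcl14, each the highest of its group, and without it the values were -3.94 (adjusted p = 0.112) and -3.26 (adjusted p = 0.00238). Most other single omissions also took Cxcl1 over the threshold, leaving 2 of 16 fits past it, and Cxcl14 held in 8 of 16.

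In females 0 of 8 members passed (2.64% of genes did), with 4 at an unadjusted p under 0.05, and the nearest was Cxcl14 at -1.79 ± 0.48 (edgeR adjusted p = 0.0570). DESeq2 called 1 member there and limma-voom 3, but limma-voom called 1881 genes over the whole table where edgeR called 445. Leaving out female WT chow replicate 4 or KO chow replicate 4 each gave 1 call, of Cxcl14 (edgeR adjusted p = 0.0218 and 0.0137). Leaving out KO SC-435 replicate 4 also gave 1 call, of Cxcl10 (-1.28, edgeR adjusted p = 0.0474).

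Sex differences were tested as a difference of effects, female minus male. Cxcl2 and Cxcl5 passed the filter in these fits through the KO chow mice, so the number of members tested was partly set by the filter. For KO vs WT on chow 0 of 10 members passed (0.0235% of genes did; 2 at an unadjusted p under 0.05, and 0 by DESeq2 and limma-voom), the largest estimate being that of Cxcl1 at -1.85 ± 0.72 (edgeR adjusted p = 0.669). For SC-435 vs chow in KO mice, 1 of 10 passed (0.211% of genes did, and 0.0996% in the positive direction): Cxcl14 fell less in females than in males, by 1.82 ± 0.35 (adjusted p = 0.0476). That call held in 5 of 16 fits with 1 mouse left out (highest adjusted p = 0.110). Cxcl1 had an estimate of 2.16 ± 0.67 in the same direction (adjusted p = 0.196).

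**Figure D4:**
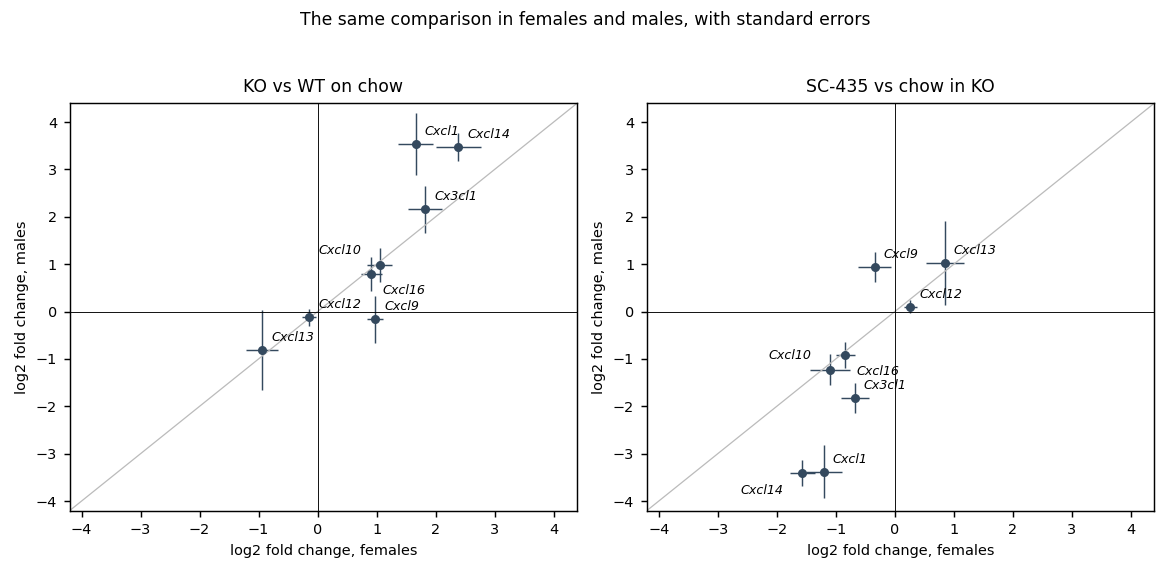
Log2 fold change in females (x axis) against males (y axis) for KO vs WT on chow (left) and SC-435 vs chow in KO (right), with edgeR standard errors in both directions and the grey line where the sexes would be equal. Cxcl1 and Cxcl14 lie furthest from the line on the male side, and Cxcl9 lies off it on the opposite side. Cxcl2 and Cxcl5 were not tested in females and are not drawn.

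The receptors of these ligands were described from a list of 9. Of 7 tested in females and 6 in males, 2 rose in KO mice on chow in each sex, Cx3cr1 and Cxcr4 (5.67% and 0.914% of all genes were called higher). Cx3cr1, carried by monocytes and resident phagocytes, had a mean of 0.744 ± 0.244 CPM (SD, n = 4) in female WT chow mice, 5.25 ± 2.41 in KO chow and 2.89 ± 0.706 in KO SC-435. Its log2 fold change in female KO mice was 2.81 ± 0.41 (edgeR adjusted p = 0.00292), and it stayed above WT chow on SC-435 (1.95 ± 0.28, adjusted p = 0.00135), as did its ligand Cx3cl1.

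In males Cx3cr1 had 0.582 ± 0.236 CPM in WT chow, 6.70 ± 5.85 in KO chow and 0.874 ± 0.103 in KO SC-435. Its estimates were 3.55 ± 0.64 for KO over WT (edgeR adjusted p = 0.0426) and -2.94 ± 0.55 for SC-435 in KO (adjusted p = 0.0108). Cxcr4, the Cxcl12 receptor, rose by 1.93 ± 0.35 in female and 2.74 ± 0.51 in male KO mice (adjusted p = 0.00688 and 0.0460) and fell by 1.54 ± 0.27 and 2.03 ± 0.50 with SC-435 (adjusted p = 0.00630 and 0.0258), on the log2 scale, while Cxcl12 itself did not pass. Cxcr2, named after its values were seen because it is the receptor of the neutrophil ligands, had no more than 29 counts in any library and was not tested.

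Among the other lists, 0 of 3 tested of 6 further CXC ligands and 0 of 3 shedding or trimming enzymes were called for KO vs WT on chow in females, and likewise 0 of 2 and 0 of 3 in males. Of all genes 6.68% were called there in females and 1.05% in males. Of 19 interferon-gamma response genes tested in females, 1 was called higher in KO mice on chow (Ciita, the class II transactivator, 1.86 ± 0.26, edgeR adjusted p = 0.00232) and in males 0 of 19. Of all genes 5.67% and 0.914% were called higher, so these counts lie near the shares of all genes. The median log2 fold change of that list was 0.338 in females and 0.214 in males, beside -0.0187 and 0.0394 for all genes.

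For NF-kB signalling, 4 of 19 genes tested were called higher in female KO mice on chow and 1 of 19 in males (5.67% and 0.914% of all genes), with Tnfaip3, an inhibitor of the pathway, in both (log2 fold change 1.33 ± 0.26 and 2.83 ± 0.33, edgeR adjusted p = 0.00959 and 0.00949). Il1b (2.33 ± 0.37, adjusted p = 0.00387) and Relb (1.36 ± 0.25, adjusted p = 0.00742) were the others named in females. With SC-435 in KO mice 4 of 20 fell in females and 6 of 19 in males (3.7% and 4.57% of all genes). Tnfaip3 changed by -1.24 ± 0.28 in females and -2.15 ± 0.27 in males (adjusted p = 0.0153 and 0.00200). Relb changed by -1.36 ± 0.21 in females and Icam1, which binds leukocyte integrins, by -1.56 ± 0.22 in males (adjusted p = 0.00434 and 0.00375).

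Marker lists of several liver cell types were set beside the chemokines, to be read against the shares of all genes called higher for KO vs WT on chow (5.67% in females, 0.914% in males) and lower for SC-435 in KO (3.7% and 4.57%). The 8 cholangiocyte markers summed to 56.5 to 87.2 CPM in female WT chow mice, 155 to 318 in KO chow and 119 to 167 in KO SC-435. In males the ranges were 45.5 to 54.3, 168 to 1204 and 67.1 to 77.7 CPM. Of the 8, 5 were called higher in female and 3 in male KO mice on chow, with Spp1 at 2.40 ± 0.31 and 4.48 ± 0.77 (edgeR adjusted p = 0.00198 and 0.0376).

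The 7 monocyte and macrophage markers summed to 145 to 175, 289 to 488 and 138 to 212 CPM in the same female groups and to 114 to 197, 175 to 806 and 125 to 176 CPM in males. On chow 6 of 7 were called higher in female KO mice and 0 of 7 in male KO mice, where the ranges of KO and WT overlapped, and with SC-435 5 of 7 were called lower in each sex. The 8 neutrophil markers stayed under 5 CPM in sum in every mouse, from 0.272 to 4.74 CPM, Ly6g and Mpo were at 0 in at least 1 library of every group, and 2 could be tested. Of these S100a9 was called higher in female KO mice on chow (1.87 ± 0.47, edgeR adjusted p = 0.0251), was not called in males (2.31 ± 0.59, adjusted p = 0.109) and was called lower with SC-435 in KO mice of both sexes (adjusted p = 0.00601 and 0.0287). S100a8 passed the filter only in comparisons that hold KO chow mice, where it is high, and gave the same calls. In males S100a9 did not pass the filter for SC-435 vs chow in WT or for KO vs WT on SC-435. Its male call with SC-435 in KO mice was thus partly set by the filter. Of 5 Kupffer cell markers 1 was called higher in female and 0 in male KO mice on chow, and of 8 endothelial markers 0 in either sex. Kupffer cell sums were 251 to 298 CPM in female WT and 324 to 467 in female KO mice on chow, and 187 to 318 and 187 to 592 in males. The 8 hepatocyte markers summed to 91712 to 116850 CPM in female WT and 56326 to 77193 in female KO mice on chow. In males these sums were 75160 to 182873 and 53234 to 80744 CPM. The part of these cell types in the chemokine values was not tested.

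**Figure D5:**
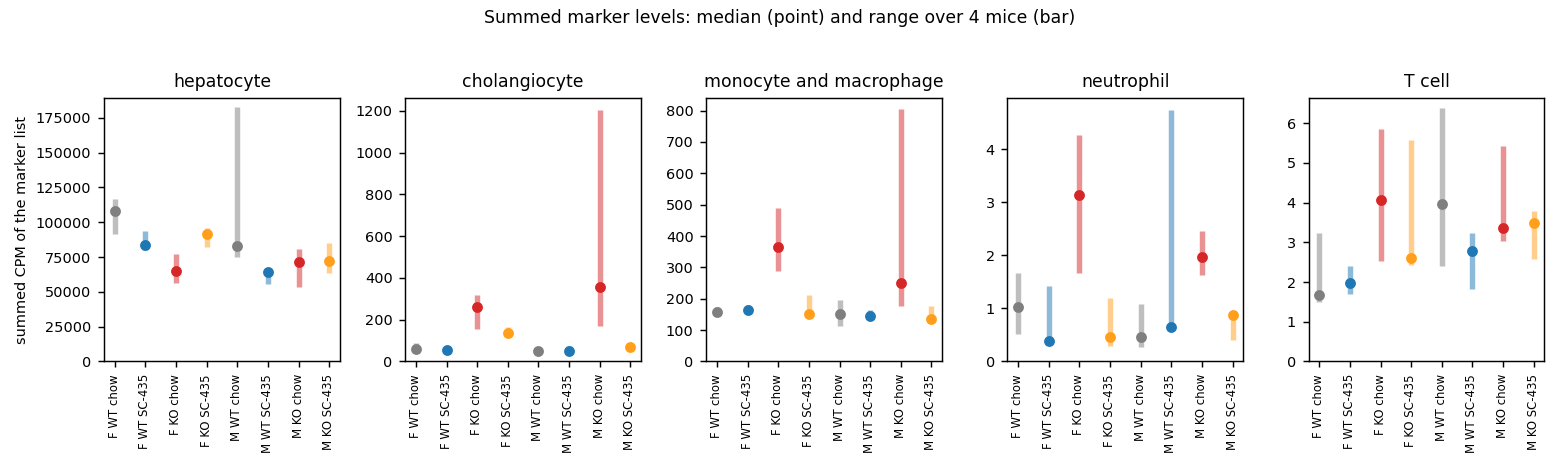
Summed CPM (y axis) of the marker lists for 5 cell types by group (x axis; F, female; M, male), with the median of 4 mice as a point and the range as a bar. KO chow groups (red) reach 318 and 1204 CPM for cholangiocytes in females and males, and neutrophil markers stay below 5 CPM.

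The genes whose profile was most like each member's were taken as those with the highest Pearson correlation of log2 CPM over the 32 mice, among 11727 genes. These values share libraries and group structure, so the correlation of the deviations from the group means follows each. Cxcl16 was closest to the leukocyte genes Cd52 (0.946, deviations 0.871) and Cd68 (0.941, deviations 0.918). Cx3cl1 was closest to Src (0.926, deviations 0.671) and Ddr1 (0.919, deviations 0.608). For Cxcl9 these were the interferon-induced GTPases Tgtp1 (0.815, deviations 0.842) and Gbp2 (0.811, deviations 0.827).

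The other members had neighbours of several kinds. Cxcl1 was closest to Fosb (0.817, deviations 0.558), and Cxcl2 to Atf3 (0.878, deviations 0.582), a stress-induced factor, and Casp12 (0.859, deviations 0.584). Cxcl14 was closest to Shc2 (0.902, deviations 0.562) and Gpnmb (0.886, deviations 0.413), and Cxcl10 to Slamf8 (0.852, deviations 0.694) and Relb (0.823, deviations 0.565). Cxcl5 paired with Cyth4 (0.917, deviations 0.719) and Sirpa (0.910, deviations 0.645), Cxcl12 with Rdh16f2 (0.811, deviations 0.584) and Bcat2 (0.797, deviations 0.539), and Cxcl13 with Gbp2b (0.757, deviations 0.581) and Slco1a4 (0.692, deviations 0.309). Cxcl2 and Cxcl5 were scarce and passed the filter through the KO chow mice. Their correlations over the mice therefore largely set KO chow against values near the detection limit. Between members, Cxcl9 and Cxcl10 had a correlation of 0.448 over the mice and 0.802 in the deviations.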

How the data were processed

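Liver poly(A) RNA-seq of 32 mice (8 groups of 4) was analysed from the raw gene counts the authors deposited, which are whole numbers of reads per gene, not normalised. The submitters' processing notes name the build mm10 and the tools HISAT2 (2.0.5), featureCounts (1.5.0-p3), DESeq2 (1.20.0) and GATK (4.1.1.0). Strand setting and annotation release are not given in the sources used here. The same table holds 32 columns of the authors' FPKM values and columns of their own comparisons (fold changes and p-values), which were not used. Groups came from the sample titles.

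For each comparison, the libraries concerned were filtered with filterByExpr (minimum count 10, minimum total 15), TMM-normalised and tested with edgeR 4.0.16 (glmQLFit, glmQLFTest; R 4.3.3) over all genes with Benjamini-Hochberg adjustment. Pairwise calls required more than 1 unit of log2 fold change together with an adjusted p under 0.05. Differences of effects required the adjusted p alone. A standard error is the log2 fold change divided by the square root of F. CPM values use TMM over all 32 libraries, whose totals ran from 36476021 to 44771350 counts. The script was tested on simulated counts. Alternatives were other normalisations and filters, DESeq2 1.42.0, limma-voom (limma 3.58.1), a replicate block, 1 fit over the 4 groups of a sex, and leaving out each mouse.

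The 10 members, the gene lists and the markers were chosen with earlier results of these data known. Genes named are the members, Cyp2c70, at most the 3 most changed called genes of each list and the 2 genes most correlated with each member, with Cxcr2, the genes that overlap members and the neutrophil markers at 0 added after their values were seen. For Cxcl1, 1 of these correlated genes is not reported here. Positions are those of the table, on GRCm38.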

Additional observations from a re-analysis of the deposited data

Results flagged for a closer look

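In 80 group-by-gene sets of 4 mice, 8 mice stood far from the other 3 by Dixon's criterion, which chance alone meets in about 1 in 20 sets. For Cxcl5, with 4 of the 8, the libraries held 0 to 7 counts, so that ties near 0 set the criterion and it says little there. Male WT chow replicate 1, the library with the low scaling factor, had 0.780 CPM of Cxcl1 (20 counts) against 3.12 to 3.53 in its group. The same library had 0 counts of Cxcl5, with 0.0248 to 0.0274 CPM in the others. Male WT SC-435 replicate 4 had 8.28 CPM of Cxcl14 against 1.14 to 1.98, and 0.0536 CPM of Cxcl5 (2 counts) where the others had none. Male KO SC-435 replicate 4 had 30.1 CPM of Cxcl9 against 11.9 to 14.3, and 0.0743 CPM of Cxcl5 (3 counts) where the others had none. Female WT SC-435 replicate 1 had 3.08 CPM of Cxcl13 against 1.38 to 1.49. Female WT chow replicate 4 had 0.166 CPM of Cxcl5 (7 counts) against 0 to 0.0243. What sets these mice apart was not tested.

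With all mice kept, these effects differed between groups by edgeR's test of the difference itself. None of these calls held in every fit that left out 1 mouse, and in some such fits each count fell to 0. In males the SC-435 effect differed between KO and WT mice for Cxcl1 (-4.41 on the log2 scale) and for Cxcl14 (-4.30). In KO mice the SC-435 effect on Cxcl14 differed between females and males (1.82).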

How the results depend on the processing

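No called member changed direction under any setting. Of the recomputed counts of members called, 216 stayed within 1.5 times the value in the report and 62 did not. The former include counts of 0 that stayed 0. Where members were called, the count stayed so in these numbers of fits with 1 mouse left out. For KO vs WT on chow it was 7 of 8 (females) and 1 of 8 (males), and for SC-435 in KO 3 of 8 and 8 of 8. For female KO on SC-435 it was 6 of 8 against WT on chow and 8 of 8 against WT on SC-435. For the male difference of SC-435 effects it was 2 of 16, and for its sex difference 5 of 16. With 1 mouse left out, the counts ranged from 3 to 8 for KO vs WT on chow in females (8 without KO chow replicate 4), 1 to 5 for SC-435 vs chow in female KO, 0 to 2 for female KO on SC-435 vs WT on chow (0 without WT chow replicate 1, 2 without WT chow replicate 4), 1 to 4 for KO vs WT on chow in males, 4 to 6 for SC-435 vs chow in male KO, 0 to 1 for the female and 0 to 2 for the male difference of SC-435 effects, and 0 to 1 for the sex difference of the SC-435 effect. For SC-435 vs chow in female KO the count was 5 without KO chow replicate 4, 4 without KO SC-435 replicate 4, and 1 without KO chow replicate 1 or 2 or KO SC-435 replicate 2. The female counts of 8, 5 and 4 each include Cxcl2 or Cxcl5, which failed the filter with all mice kept. These counts were thus partly set by the filter.

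The female KO vs WT count of 4 became 7 with limma-voom, where 1082 genes called over the whole table became 1587, and 7 at any fold. The female SC-435 count of 2 became 4 with library size only, 4 with no filter and 1 with the replicate block. Female KO vs WT on SC-435 gave 2 at any fold. The male KO vs WT count of 3 became 1 with a filter at a mean of 50 counts, 5 with limma-voom and 1 with the replicate block. The female difference of SC-435 effects, with 0, gave 1 with library size only, 1 with no filter, 1 with DESeq2 and 3 with limma-voom. The male one, with 2, gave 1 with library size only, 1 with the filter at 50 and 0 with the replicate block. The sex difference of the SC-435 effect, with 1, gave 0 with library size only, limma-voom or the replicate block. The cause was not tested.

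Replicate numbers did not pair the mice: the correlations of same-numbered mice ran from -0.148 to 0.332, and no comparison had all of them over 0.1. The replicate block moved no other count by more than 1.5 times. The shift from using library totals in place of TMM was estimated from the TMM factors over all 32 libraries. For log2 fold changes it was about 0.18 (females) and 0.33 (males) for KO vs WT on chow. For SC-435 in KO it was about -0.16 and -0.19. Each fit used TMM over its own libraries, so its exact shift may differ. Counts over the whole table moved too: 166 genes for male KO vs WT on chow became 17 with the replicate block and 963 with limma-voom, and 15 for the male difference of SC-435 effects became 6 and 468, and 445 for the female one became 215 and 1881.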
